A study of Mus musculus with 4 samples.

Results

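The 9 genes described here serve the presentation of antigen on MHC class II. They are the chains of the class II molecules (H2-Aa, H2-Ab1, H2-Eb1), the invariant chain (Cd74), the peptide editor H2-DM (H2-DMa, H2-DMb1), its modulator H2-DO (H2-Oa, H2-Ob) and the transactivator of the group (Ciita). They were chosen by name, with earlier results of these data known. Each was represented on the arrays through the accession of its probes, which makes 9 of the 22911 genes named in this way. The RNA came from cells of subcutaneous Bcr-Abl+ tumors of 8-week-old C57BL/6Ncr mice, either wild type (Wt) or Sipa1-/-, which lack the Rap1 GTPase-activating protein Sipa1. All mice had received 15000 hematopoietic progenitor cells carrying the Bcr-Abl oncogene and a GFP reporter, in Matrigel, and the tumors were taken on day 12. From each genotype, for which 5 mice were used, mesenchymal stroma cells (MSCs) were sorted as cells without GFP, CD45, Ter119 or CD31, so by what they lack, and CD8+ T cells as GFP-negative cells with TCRβ and CD8. Whether the 5 mice were pooled is not stated in the sources used here. Each of the 4 conditions has 1 one-color array, so no difference below has a replicate check, and no test was run. The number of arrays limits the precision.

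Class II molecules carry peptides from the endosomes of a cell to its surface, where CD4+ T cells read them. Dendritic cells, macrophages and B cells make them constantly, fibroblasts and other stroma cells mainly after interferon-gamma, and mouse T cells make little of them. Ciita does not bind DNA itself but is recruited to a shared promoter module, in which an X box bound by the RFX complex lies before a Y box bound by NF-Y. The invariant chain guides the new molecules to the endosome, cathepsins trim it to a fragment in the groove, and H2-DM exchanges this fragment for antigen peptides. H2-DO, which holds H2-DM back, is made mainly by B cells and some dendritic cells.

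Levels are given as the log2 signal of a probe minus that of the array's 75th percentile, so that 0 is the level of the upper quartile of spots. They were compared between arrays for the same probe and not between probes. The 75th percentile was between 16.4 and 19.7 times the median background. Between 60.3% and 65.3% of the spots not used as controls were well above background, and no spot was saturated. Some probes had 10 spots, and the SD of log2 signals between spots of such a probe had a median of at most 0.0445 on each array, a measure of spot noise alone. For the few such probes below a level of -3 it was between 0.140 and 0.284. Both Sipa1 probes were lower on the Sipa1-/- arrays, from 5.03 to 3.78 and from 3.05 to 1.46 in MSCs, and from 5.40 to 3.73 and from 3.43 to 1.39 in CD8+ T cells. Levels of marker genes are over probes that passed the flags on all 4 arrays. The 7 T-cell markers with such a probe had median levels of 5.11 and 4.91 in Wt and Sipa1-/- CD8+ T cells against -2.56 and -1.75 in MSCs. The 9 fibroblast markers had 5.41 and 6.55 in Wt and Sipa1-/- MSCs against 2.63 and 4.29 in CD8+ T cells. Thy1, counted among them, read 7.37 and 7.46 in CD8+ T cells, above its 5.41 and 6.55 in MSCs. The 14 probes of the 9 genes, each printed on 1 spot, passed all quality flags on all 4 arrays, so every member could be compared in every pair.

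The shared promoter module is shown first, because the members that carry it did not move together below. Promoter windows of RefSeq (GRCm38.p6), from 250 bases before to 50 bases after a start site, were given for 6 of the 9 members. The letters CNNGNAAC, which hold the core of the X box, and GATTGG, which hold the core of the Y box, were searched without overlap between them. These letters and the spacing of 25 to 45 bases from start to start were set after the windows of the members had been read, so that the matches are a description. In 5 of the 6 members X came before Y on the strand of the gene at this spacing. Of all 32851 windows, 0.137% held the pair on the strand of the gene and 0.262% on either strand, while 39.1% held the X letters and 16.1% the Y letters on either strand. The pair was not in either of the windows of H2-DMa. The 150 bases before the start site are printed for the 5 members, 5′ to 3′ on the strand of the gene, with the X and then the Y letters in capitals. They lie at chr17:34287824-34287973 (minus strand) for H2-Aa, and on the plus strand at chr17:34305717-34305866 for H2-Eb1, chr17:34153041-34153190 for H2-DMb1, chr17:34092229-34092378 for H2-Oa and chr17:34238755-34238904 for H2-Ob.
H2-Aa: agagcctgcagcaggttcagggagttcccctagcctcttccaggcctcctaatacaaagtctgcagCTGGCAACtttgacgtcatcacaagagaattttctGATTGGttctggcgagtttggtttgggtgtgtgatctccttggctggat
H2-Eb1: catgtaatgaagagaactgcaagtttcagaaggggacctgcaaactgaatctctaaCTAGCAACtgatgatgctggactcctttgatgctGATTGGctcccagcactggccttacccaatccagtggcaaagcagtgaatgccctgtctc
H2-DMb1: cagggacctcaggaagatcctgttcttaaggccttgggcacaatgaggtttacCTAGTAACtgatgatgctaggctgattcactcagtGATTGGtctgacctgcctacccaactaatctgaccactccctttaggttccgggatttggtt
H2-Oa: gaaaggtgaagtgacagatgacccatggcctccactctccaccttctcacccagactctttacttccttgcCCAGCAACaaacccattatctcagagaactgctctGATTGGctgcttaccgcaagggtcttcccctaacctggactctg
H2-Ob: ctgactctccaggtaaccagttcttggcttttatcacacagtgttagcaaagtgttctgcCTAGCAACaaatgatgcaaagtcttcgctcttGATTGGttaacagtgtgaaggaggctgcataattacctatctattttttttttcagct
The X letters begin between 79 and 97 bases before the start site and the Y letters between 44 and 62. The distance between their starts is 35 bases in H2-Aa, H2-DMb1 and H2-Oa, 34 in H2-Eb1 and 32 in H2-Ob. H2-Aa, H2-Eb1 and the H2-DO genes thus share the arrangement of these letters, and H2-Eb1 and H2-Ob the same X letters, CTAGCAAC.

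In MSCs the classical chains were more than 2-fold higher on the Sipa1-/- array, the H2-DO genes were 6 to 13 times lower, and the other members lay within 2-fold. The H2-DO differences were smaller with normexp background correction. H2-Aa encodes the α chain of the A molecule. Its level was 0.56 in Wt MSCs, 1.64 in Sipa1-/- MSCs, 4.51 in Wt and 4.83 in Sipa1-/- CD8+ T cells. It was thus 2.11-fold higher in Sipa1-/- than in Wt MSCs, and both MSC arrays were far below both CD8+ T arrays. H2-Ab1, its partner β chain, had 4 probes. In the order Wt MSC, Sipa1-/- MSC, Wt CD8+ T and Sipa1-/- CD8+ T, its first probe read 3.32, 4.46, 6.59 and 7.03. The second probe read 4.54, 5.66, 7.46 and 7.85. The 4 probes put the arrays in the same order, and their log2 ratios of Sipa1-/- over Wt in MSCs ran from 1.01 to 1.15. H2-Eb1 encodes the β chain of the E molecule, whose α chain C57BL/6 mice do not make. Its level was 3.90 in Wt and 5.20 in Sipa1-/- MSCs, and 7.48 and 7.79 in the CD8+ T cells. At 2.47-fold it had the largest upward difference of the 9 genes between the MSC arrays. With each array shifted by its median in place of the 75th percentile, the log2 ratios of H2-Aa and H2-Ab1 in MSCs were 0.94 and 0.95, just under 2-fold, and H2-Eb1 stayed above it.

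**Figure D1:**
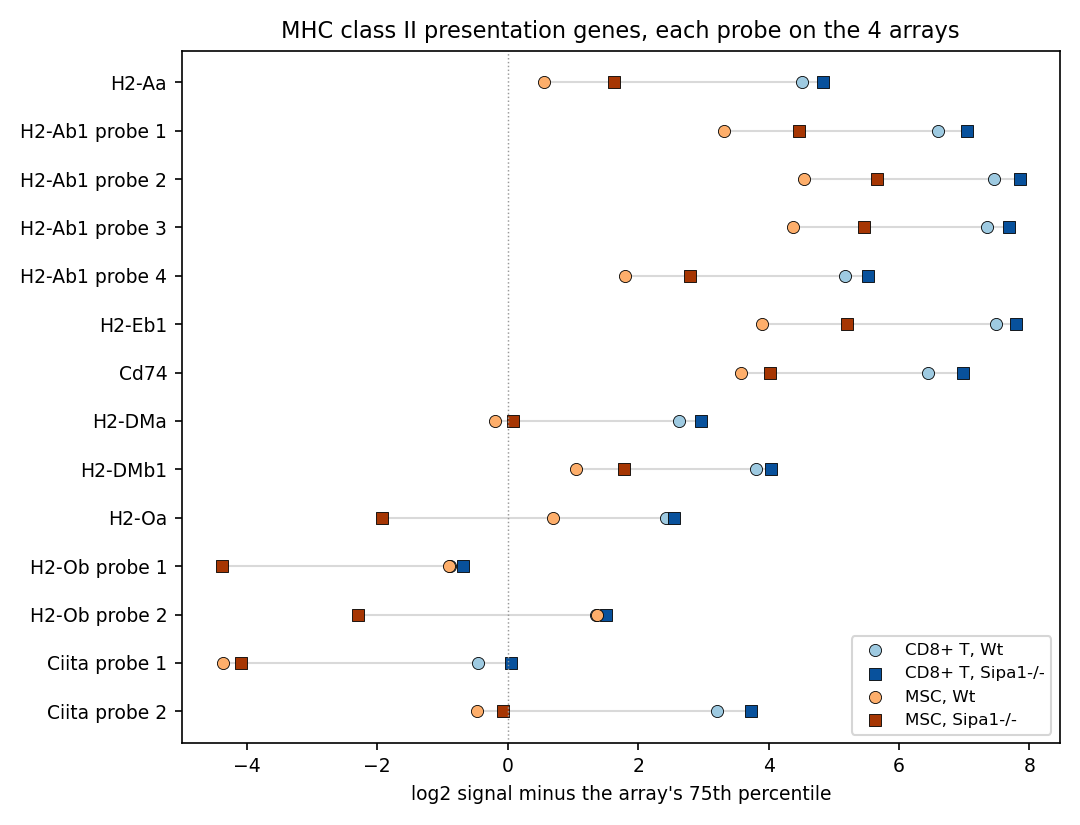
The level of each of the 14 probes (rows) on the 4 arrays, as log2 signal minus the 75th percentile of the array, with 1 point per array and no error bars. For H2-Aa, H2-Ab1, H2-Eb1, Cd74, H2-DMa, H2-DMb1 and Ciita the MSC points lie left of the CD8+ T points with the Wt point the lower of each pair, whereas for H2-Oa and H2-Ob the Sipa1-/- MSC point stands apart at the left. The Wt MSC and Wt CD8+ T points of H2-Ob lie on top of each other.

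Cd74, the invariant chain, is also known on its own as a receptor of the cytokine Mif. Its level was 3.57 in Wt and 4.02 in Sipa1-/- MSCs, and 6.44 and 6.97 in the CD8+ T cells. The 1.37-fold difference in MSCs was smaller than that of each classical chain. Of H2-DM, the α chain H2-DMa read -0.19 and 0.08 on the MSC arrays and 2.62 and 2.96 on the CD8+ T arrays. The β chain H2-DMb1 read 1.05 and 1.78, and 3.81 and 4.03. Both chains were higher in Sipa1-/- MSCs, by 1.20-fold and 1.67-fold. Whether the H2-DMb1 probe also binds transcripts of its close copy H2-DMb2 was not tested. The H2-DMb2 probe went the other way in MSCs, from -3.77 to -4.39, a log2 ratio of -0.62 that shrank to -0.23 with normexp. Ciita, which sets how much class II a cell makes, had 2 probes. The brighter read -0.47 and -0.08 on the MSC arrays and 3.20 and 3.73 on the CD8+ T arrays, and the dimmer -4.36 and -4.08, and -0.45 and 0.05. Its MSC difference of 1.26-fold over both probes was below that of the classical chains. Ciita has separate promoters for dendritic cells, B cells and interferon-gamma-treated cells, and the probes were not assigned to them here.

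The H2-DO genes had the opposite pattern. H2-Oa, the α chain, read 0.70 in Wt and -1.92 in Sipa1-/- MSCs, and 2.43 and 2.55 in the CD8+ T cells. It was 6.13-fold lower in Sipa1-/- MSCs. The brighter probe of H2-Ob, the β chain, read 1.37 and -2.29 in MSCs and 1.36 and 1.51 in CD8+ T cells. Its dimmer probe read -0.90 and -4.38, and -0.88 and -0.68. The probes were 12.6-fold and 11.2-fold lower in Sipa1-/- MSCs. For H2-Ob the Wt MSC array was thus at the level of the CD8+ T arrays, which is so for no other member, and the Sipa1-/- MSC array alone was low. The H2-DO probes kept the flag for well above background on that array. The dimmer H2-Ob probe was weak there, with a background-corrected signal of 22.0 beside a median background of 24. With normexp background correction the log2 ratios in MSCs were -2.15 for H2-Oa and -2.39 for H2-Ob, in place of -2.62 and -3.57.

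Across the 9 members in MSCs, 3 were at least 2-fold higher in Sipa1-/- cells, where 19.3% of all 15298 genes were, and 2 were at least 2-fold lower, where 11.3% were. The median log2 ratio was 0.45, and 0.04 over all genes. Without the H2-DO genes 7 of 7 members were higher, with a median of 0.74 and a range from 0.27 to 1.30. With a shift by the array median, 1 member was at least 2-fold higher and 2 were lower. Of the 15298 genes, 2563 were higher and 2176 lower at this fold under that shift. MSC arrays differ at this fold in 30.7% of genes, so a change past it was common there.

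In CD8+ T cells 9 of 9 members were slightly higher in Sipa1-/- cells and none reached 2-fold, a size that 4.06% of 14339 genes reached, 2.66% upward and 1.4% downward. The log2 ratios ran from 0.12 for H2-Oa, which turned to -0.03 under the median shift, to 0.54 for Cd74. Ciita followed Cd74 with 0.51, the classical chains lay between 0.31 and 0.38, and H2-Ob was at 0.18. The median was 0.32, and -0.02 over all genes. The arrays of H2-Oa and H2-Ob differed between the genotypes by 1.09-fold and 1.13-fold in these cells. The ratio in MSCs exceeded that in CD8+ T cells by 1.00 for H2-Eb1, 0.76 for H2-Aa and 0.71 for H2-Ab1 on the log2 scale, and by 0.52 for H2-DMb1. For H2-DMa, Cd74 and Ciita it was lower by 0.07, 0.08 and 0.18. For H2-Oa and H2-Ob the MSC ratio was lower by 2.73 and 3.75. These differences between cell types could not be tested.

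**Figure D2:**
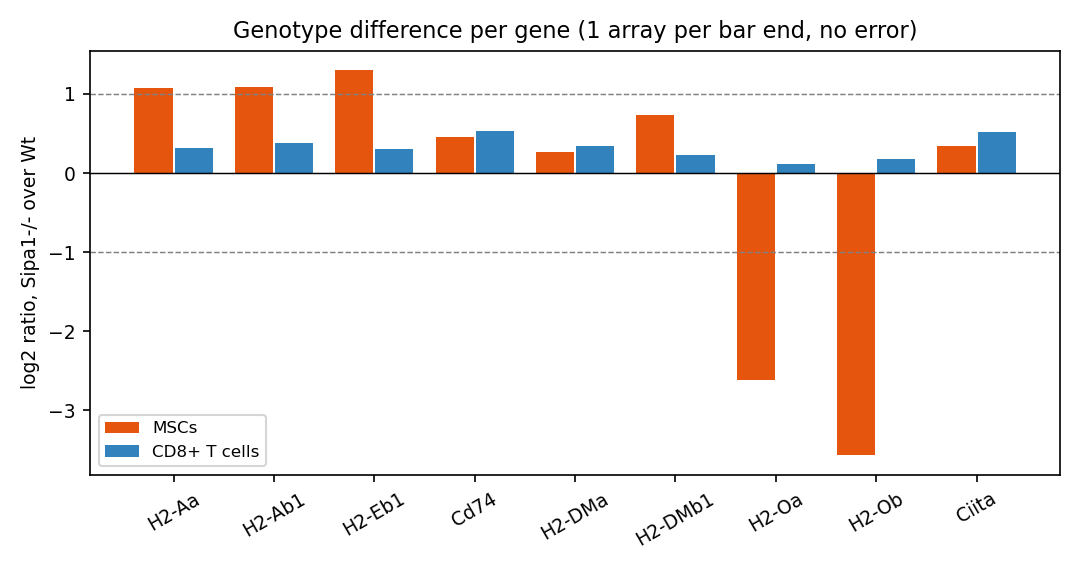
The log2 ratio of Sipa1-/- over Wt for each of the 9 genes, in MSCs and in CD8+ T cells, with probes of a gene averaged and dashed lines at 2-fold. The classical chains pass the upper line in MSCs (H2-Aa and H2-Ab1 not under a shift by the array median), H2-Oa and H2-Ob pass the lower line in MSCs, and every CD8+ T bar lies between 0.12 and 0.54 (H2-Oa turns to -0.03 under that shift).

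The CD8+ T arrays carried more class II signal than the MSC arrays. In Wt cells 8 of 9 members were at least 2-fold lower in MSCs. Of 14225 genes, 30.1% were past this fold, 12.8% lower and 17.3% higher in MSCs. In Sipa1-/- cells 9 of 9 members were, where of 14300 genes 40.6% were past it, 18.7% lower and 21.9% higher. The comparisons within a cell type and within a genotype share arrays, so they are not independent of each other. In Wt cells the CD8+ T array was above the MSC array by 15.5-fold for H2-Aa, 13.8-fold for Ciita, 12.0-fold for H2-Eb1 and 8.79-fold for H2-Ab1. The fold was 7.30 for Cd74, 7.01 for H2-DMa and 6.79 for H2-DMb1, and smaller for H2-Oa at 3.33. In Sipa1-/- cells the gap between the cell types was smaller for the classical chains, at 9.14-fold for H2-Aa, 6.00-fold for H2-Eb1 and 5.38-fold for H2-Ab1. Cd74, H2-DMa and Ciita kept 7.73-fold, 7.36-fold and 15.7-fold, and H2-DMb1 had 4.75-fold. The H2-DO genes were farther apart, 22.1-fold for H2-Oa and 13.5-fold for H2-Ob. The order of the arrays, from high to low, was Sipa1-/- CD8+ T, Wt CD8+ T, Sipa1-/- MSC and Wt MSC for the 7 members other than H2-DO, and in the H2-DO genes the MSC arrays were in the other order. The gaps of 0.12 for H2-Oa and 0.18 for H2-Ob between the CD8+ T arrays are the smallest genotype gaps of the 9 genes.

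**Figure D3:**
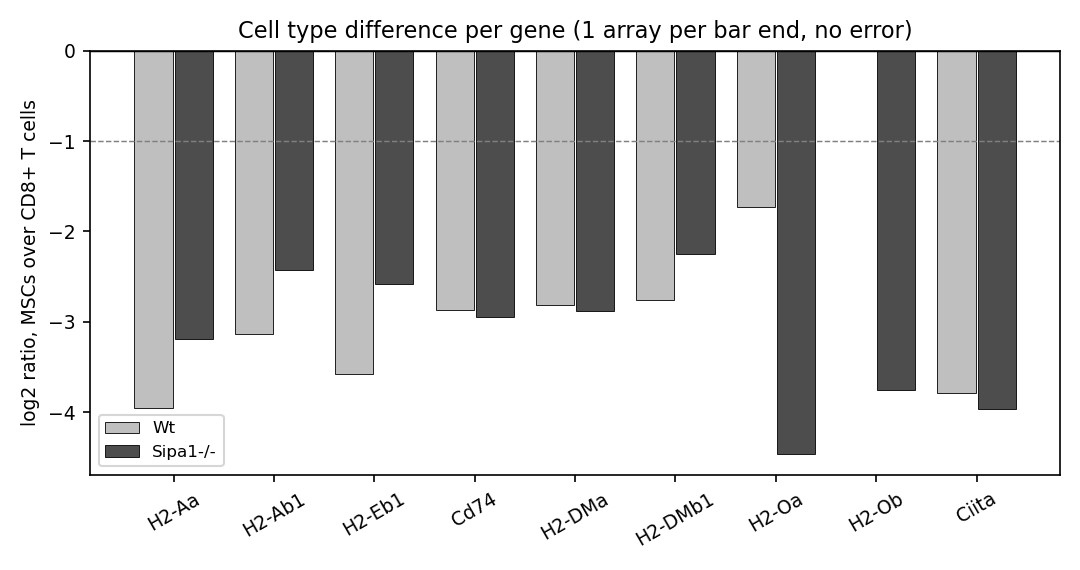
The log2 ratio of MSCs over CD8+ T cells for each of the 9 genes, in Wt and in Sipa1-/- mice, with probes of a gene averaged and a dashed line at 2-fold lower. All bars lie below the line except H2-Ob in Wt, which is at 0 (its sign turns under the series matrix values, normexp and the brightest probe), and H2-Oa, Ciita and H2-Ob have the lowest bars in Sipa1-/- mice.

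In bulk RNA fewer cells of a type and less RNA per cell cannot be told apart, so the markers of cells that make class II were read on the same arrays. The marker lists, like the members, were chosen with earlier results of these data known, so that likeness to the members is a description. Of 10 dendritic cell markers, 9 had a probe that passed on all 4 arrays, and Xcr1 was not well above background in MSCs. Their summed level, in units of the 75th percentile, was 148 and 161 in Wt and Sipa1-/- CD8+ T cells and 80.0 and 76.5 in MSCs. Most of it came from 1 of the 2 probes of Siglech, a marker of plasmacytoid dendritic cells. That probe differed little between the arrays (6.62, 6.66, 6.26 and 6.20). Over both probes Siglech averaged 2.25, 2.13, 0.90 and -0.87 in the same order. Its other probe, which did not pass on all 4 arrays, was thus far dimmer and lower in Sipa1-/- than in Wt MSCs. The other 8 markers summed to 49.7 and 60.5 in CD8+ T cells and to 3.25 and 2.98 in MSCs. Over all probes of the markers, those that failed the flags included, the sums of the list were 93.8 and 105, and 41.4 and 39.3, a setting added after the data were seen. Itgax (CD11c) read 3.42 and 3.71 in CD8+ T cells and -1.05 and -0.27 in MSCs on 1 of its 2 probes. Over both probes it averaged 0.20, 0.43, -4.54 and -3.55 in the same order. Flt3 read 1.67, 1.93, -2.37 and -2.70. Zbtb46 differed little between the cell types, with log2 ratios of MSCs over CD8+ T cells of -0.27 in Wt and 0.04 in Sipa1-/- mice. The 9 markers measured in both cell types had a median log2 ratio of MSCs over CD8+ T cells of -3.77 in Wt and -3.71 in Sipa1-/- mice, beside -2.87 and -2.95 for the class II members. Ccr7, Cd83 and Flt3 are not exclusive to dendritic cells, since T cells and progenitors use some of them. The summed level of the 12 macrophage and monocyte markers was 222 and 211 in CD8+ T cells and 116 and 231 in MSCs, most of it from Ly6c2, which memory CD8+ T cells make as well. Without Ly6c2 the sums were 33.1 and 25.7, and 11.7 and 18.9. Their part in the class II signal was not tested.

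Between the genotypes, 11 of the 12 macrophage and monocyte markers were higher in Sipa1-/- MSCs. Their median log2 ratio was 1.03, beside 1.09 for the classical chains and 0.04 over all genes. C1qa went from -1.43 to -0.17, C1qc from -0.96 to 0.44 and Csf1r from 0.34 to 1.19. Adgre1, a surface marker of macrophages, went from -2.47 to -1.48. Of 9 dendritic cell markers measured on both MSC arrays, 4 were higher and 5 lower, with a median of -0.06 that turned to 0.23 with quantile normalization and 0.14 with the series matrix. The fibroblast markers were higher for 9 of 9, with a median of 1.14. The 5 genes common to leukocytes were lower for 5 of 5, with a median of -1.53. The granulocyte markers had a median of 0.20, the T-cell markers of 0.66 and the endothelial markers of -0.03. The endothelial median turned to 0.17 with the series matrix and 0.01 with normexp. The summed level of the 8 granulocyte markers was 703 and 787 in Wt and Sipa1-/- MSCs and 618 and 329 in CD8+ T cells. In CD8+ T cells 9 of 10 dendritic cell markers were higher in Sipa1-/- cells. Their median was 0.33, beside 0.32 for the class II members and -0.02 over all genes. There 9 of 10 fibroblast markers were at least 2-fold higher in Sipa1-/- cells, where 2.66% of all genes were. The fibroblast markers had a median of 1.62 and the granulocyte markers of -1.08. Which of these cells carried the class II transcripts was not tested.

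Between the MSC arrays the B-lineage markers and the H2-DO genes were both lower in Sipa1-/- cells. Of 12 B-lineage markers, 11 were lower and 10 passed 2-fold downward, where 11.3% of all genes did. Their median log2 ratio was -4.05, beside -2.62 for H2-Oa and -3.57 for H2-Ob. In CD8+ T cells 3 of the 12 were at least 2-fold lower in Sipa1-/- cells, where 1.4% of all genes were. H2-Oa and H2-Ob had 0.12 and 0.18 there. The summed level of the markers was 668 times the 75th percentile in Wt MSCs, 42.2 in Sipa1-/- MSCs and at most 32.1 in CD8+ T cells. H2-Oa read 0.70 in Wt MSCs and 2.43 and 2.55 in CD8+ T cells. Cd79b, a chain of the B-cell receptor complex, went from 6.65 to 2.49 in MSCs. Ms4a1 (CD20), a marker of later B cells, went from 1.66 to -0.67 and read 1.56 and 1.76 in CD8+ T cells. The Fc receptor gene Fcer2a, found on mature B cells, was level at -4.44 and -4.43 in MSCs. The classical chains were higher on the array with fewer B-lineage transcripts. The part of B-lineage RNA in the H2-DO levels was not tested.

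**Figure D4:**
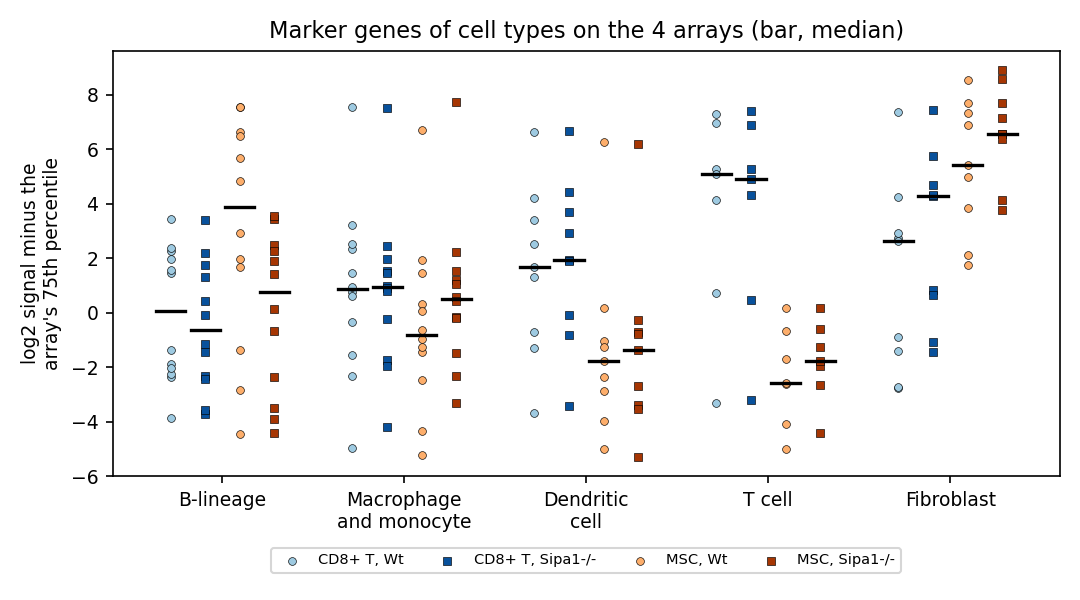
Levels of marker genes of 5 cell types on the 4 arrays, as log2 signal minus the 75th percentile, with 1 point per gene with a probe that passed on all 4 arrays and a bar at the median of the list. The B-lineage points are highest on the Wt MSC array (median 3.88, against 0.77 on the Sipa1-/- MSC array), and the dendritic cell medians are higher on both CD8+ T arrays (1.67 and 1.93) than on the MSC arrays (-1.78 and -1.37). The highest dendritic cell point of each array, at 6.20 to 6.66, is Siglech on 1 of its 2 probes.

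Other genes of class II presentation were read from a list of 29, of which 28 were measured in every pair and H2-Ea was not matched to a probe. In MSCs 6 passed 2-fold upward in Sipa1-/- cells and 2 downward, and in CD8+ T cells none passed it. As shares these are 21.4% and 7.14%, beside 19.3% and 11.3% of all genes in MSCs, and 0 of 28 stands beside 4.06% in CD8+ T cells, so that nothing is read from these counts. With the median shift these counts were 3 and 4, and with the values of the series matrix 6 and 0. The endosomal proteases differed among themselves. Ctsl (cathepsin L) went from 4.87 to 6.57 in MSCs and Ctsd (cathepsin D) from 4.24 to 5.33. Ctsb went from 5.93 to 6.98 and Lgmn (legumain) from 3.61 to 4.63, so that 4 of the 6 processing genes passed 2-fold, where 19.3% of all genes did. With the median shift Ctsl alone of these 4 did, and Ifi30 passed it downward with -1.06. Ctss (cathepsin S), which cleaves the invariant chain in dendritic cells and B cells, was level at 3.75 and 3.67. Ifi30, the thiol reductase GILT, was lower, from 3.37 to 2.45. Across cell types Ctss was lower in MSCs than in CD8+ T cells, with log2 ratios of -2.09 in Wt and -2.30 in Sipa1-/- mice, whereas Ctsl was higher, with 2.89 and 4.14. In thymic epithelium Ctsl is the protease known for the step that Ctss takes in bone-marrow-derived cells.

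The factors of the promoter module were lower in Sipa1-/- MSCs for 7 of 7 genes. Their median log2 ratio was -0.64, beside 0.04 over all genes. Nfyb and Nfya, subunits of NF-Y, had -1.04 and -1.01, and with the series matrix values or normexp no promoter factor passed 2-fold. Rfx5, the DNA-binding subunit of the RFX complex, was at -0.88, and its partners Rfxap and Rfxank at -0.58 and -0.43. Creb1, which joins them at the module, was at -0.54. In CD8+ T cells these 7 genes lay between -0.23 and 0.09. The genes of the interferon-gamma input were higher in Sipa1-/- MSCs for 7 of 7, none of them 2-fold, with a median of 0.50. The share of all genes higher or lower at any size was not counted. These directions rest on 1 array per genotype and were not tested. The receptor chains Ifngr1 and Ifngr2 had log2 ratios of 0.44 and 0.47 and the kinases Jak1 and Jak2 0.50 and 0.64. Irf1, which acts on the interferon-gamma promoter of Ciita, had 0.50, and the feedback inhibitor Socs1 had 0.79. In CD8+ T cells the 6 genes named lay between -0.15 and 0.22.

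Of the ubiquitin ligases that remove class II from the surface, Marchf1 went from 2.18 to 3.41 and Marchf8 from -0.66 to 0.02 over its probes in MSCs. Among costimulatory genes Icosl had a log2 ratio of 1.56 in MSCs at a low level, from -4.54 to -2.97, and that of Cd80 was 0.70. Cd86 and Cd40, which professional antigen-presenting cells carry, were at -0.52 and -0.45. Cd86 was near background in MSCs, at -5.02 and -5.54 on the probe that passed on both arrays, and its ratio turned to 0.23 with flags on at least 1 array and 0.20 with no flags, when its other probes enter. All 4 costimulatory genes were lower in MSCs than in CD8+ T cells, with log2 ratios from -3.83 to -1.64 in Wt and from -4.30 to -1.06 in Sipa1-/- mice. The class II genes outside the members, H2-DMb2 and H2-Eb2, were lower in Sipa1-/- MSCs with -0.62 and -0.83, unlike H2-DMb1 and H2-Eb1. Both were dim there, and with normexp their ratios shrank to -0.23 and -0.18.

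**Figure D5:**
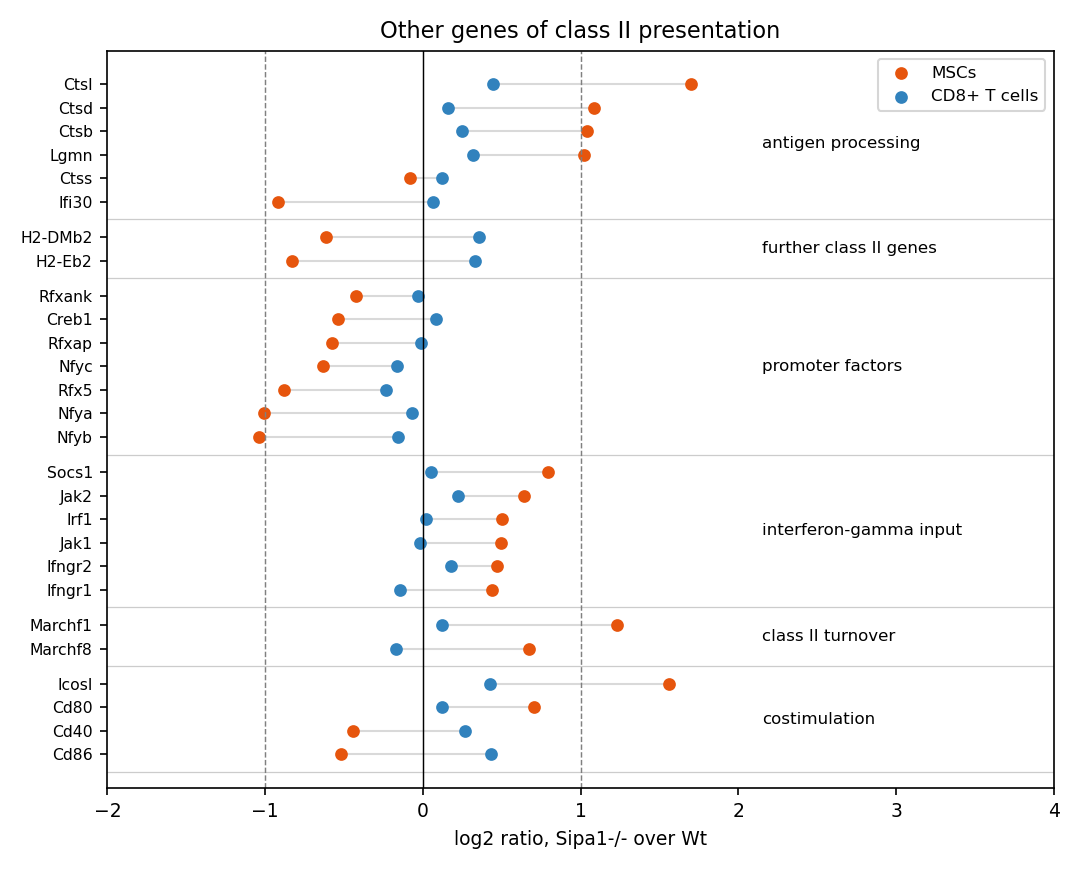
The log2 ratio of Sipa1-/- over Wt for 27 of the 28 other genes of class II presentation, grouped by role, in MSCs and in CD8+ T cells, with dashed lines at 2-fold and no error bars. In MSCs the 7 promoter factors lie left of 0 and the 6 plotted genes of the interferon-gamma input right of it, whereas the CD8+ T points stay between -0.23 and 0.44.

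The genes whose pattern over the 4 arrays was nearest to that of H2-Aa, H2-Ab1, H2-Eb1 and Cd74 were sought among 12906 of the 13766 genes that passed the flags on all 4 arrays, with the members and clone or predicted names (Rik, Gm and LOC names) left out. Likeness was the Euclidean distance between the log2 levels after the mean of each gene was taken off, and 139 genes lay within a distance of 1. The nearest was Grk3, a kinase of G-protein-coupled receptors, at 0.104. Aif1, which encodes the macrophage protein Iba1, followed at 0.138 and Lsr, a lipoprotein receptor, at 0.152. The orphan receptor gene Gpr162 was at 0.231 and Ccr6, a receptor for Ccl20, at 0.245. Aif1 read 0.11 and 0.94 in Wt and Sipa1-/- MSCs and 3.51 and 3.77 in the CD8+ T cells. By the same measure H2-DMa and H2-DMb1 were at 0.560 and 0.616 and Ciita at 0.919, while H2-Oa and H2-Ob were at 2.55 and 3.44. With 4 arrays such distances are a description.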

How the data were processed

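Total RNA of the sorted cells was labeled with Cy3 and hybridized to Agilent mouse arrays, 1 per condition. The deposited scanner intensities are background-corrected spot signals that the authors had not normalized between arrays. The scanner files name Feature Extraction 12.0.3.1 and the submitters' processing notes 9.1. The authors' series matrix holds the same intensities times 1 constant per array, set in a way not given in the sources used here.

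The log2 intensities of 59305 spots not used as controls had the 75th percentile of the array taken off. Probes passed the methods' flags (not saturated, uniform spot and background, positive and significant, well above background) on both arrays of a pair. Means were taken over the spots of a probe and then over probes of a gene. Accessions gave a symbol for 57.6% of spots (RefSeq, GRCm38.p6). A log2 ratio of 1 counted as called. The scaling of arrays and the averaging into genes were tested on simulated data with planted changes past the cutoff. This did not cover normexp, the marker sums, the motif search, the nearest genes or variation between sorts. Named genes were the 9 members, the pathway list and the 5 nearest genes, and cell type markers were in 8 lists. Marker levels were taken over probes that passed on all 4 arrays, with all probes as an alternative chosen after seeing the data. Some single genes of these lists are counted but not reported here. The members and lists were chosen with earlier results of these data known. The calculations used R 4.3.3 with limma 3.58.1, and Python 3.11.15 with pandas 2.3.3.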

Additional observations from a re-analysis of the deposited data

Results flagged for a closer look

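Of the members, H2-Oa and H2-Ob were lower in Sipa1-/- MSCs and slightly higher in Sipa1-/- CD8+ T cells, with differences of -2.73 and -3.75. Of the other pathway genes, opposite signs were seen for Ctss with a difference of -0.21, Ifi30 with -0.98, H2-DMb2 with -0.97, H2-Eb2 with -1.16, Creb1 with -0.62, Cd86 with -0.95 and Cd40 with -0.71. The signs were opposite the other way round for Ifngr1 with a difference of 0.59, Jak1 with 0.51 and Marchf8 with 0.84. Each difference is the MSC log2 ratio minus the CD8+ T log2 ratio, and the differences were not tested, since each ratio rests on 1 array per genotype. Under the 7 other settings the signs stayed opposite in each for H2-Ob, H2-DMb2, H2-Eb2, Ifngr1, Marchf8 and Cd40. They were the same for H2-Oa and Ifi30 with the median shift (-0.03 and -0.08 in CD8+ T cells), for Ctss with the median shift and the series matrix, for Creb1 with the median shift and the brightest probe, for Jak1 with quantile normalization and the series matrix, and for Cd86 with flags on at least 1 array and with no flags. For Jak1 and Ifi30 the CD8+ T ratio, -0.02 and 0.06, was about the size of spot noise, and the MSC ratio of Ctss was -0.08.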

How the results depend on the processing

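No paired analysis was possible because the groups hold 1 array each, which also leaves no replicate to take out. Normexp was run on the median spot signal. Marker sums over all probes, a setting chosen after seeing the data, stand beside the dendritic cell values above. Flags on at least 1 array and no flags could not change a member value, since all 14 member probes passed on all 4 arrays. The brightest probe could change only H2-Ab1, H2-Ob and Ciita, which have several probes. It moved none of the medians and counts of members. The median log2 ratio in MSCs was 0.45, and 0.31 with the median shift and 0.66 with the series matrix. The CD8+ T median of 0.32 became 0.17, 0.40 and 0.45 with the median shift, quantile normalization and the series matrix. For MSCs over CD8+ T cells the Wt median of -2.87 became -3.10, -2.76 and -2.41 under the same settings in this order. The Sipa1-/- median of -2.95 became -3.17 with the median shift, -2.42 with the series matrix and -2.71 with normexp. The 5 members past 2-fold in MSCs became 3 with the median shift, where 31.0% of all genes were past it. The median shift and the series matrix move all genes alike, whereas quantile normalization and normexp do not. The median of all genes in MSCs was 0.04, and -0.10 with the median shift and 0.25 with the series matrix. All-gene medians for the CD8+ T comparison, in this order, were -0.02, -0.17 and 0.11. For MSCs over CD8+ T cells they were -0.06, -0.29 and 0.39 in Wt and -0.18, -0.41 and 0.34 in Sipa1-/- mice. Of the MSC genes past 2-fold 63.1% were higher, and 74.1% under the series matrix, and in CD8+ T cells 65.5%, against 52.5% under the median shift and 76.3% under the series matrix. For MSCs over CD8+ T cells 57.4% were higher in Wt and 54.0% in Sipa1-/- mice, 76.6% and 76.3% under the series matrix, and 45.5% and 42.9% under the median shift. With normexp 52.4% were higher in CD8+ T cells. The share of all genes past 2-fold was 4.06% in CD8+ T cells, and 6.92% with flags on at least 1 array, 7.39% with no flags and 1.44% with normexp, and in MSCs it was 30.7%, and 19.7% with normexp. Of 252 member values under 7 settings, 4 changed sign, all of them below 0.5 in size, and 2 crossed 2-fold. The 252 include the values under the flag settings, and those of genes with 1 probe under the brightest probe, which could not change.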
